A study of Mus musculus with 6 samples.

Results

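Ion and water transport in the ileal crypt was described here through 8 genes: Slc12a2, Kcnq1, Cftr, Aqp4, Car12, Slc26a3, Slc26a6 and Slc9a3. They are 8 of the 32285 genes that each deposited matrix listed, and each symbol matched a single row. Positions below are on GRCm38 and span the whole gene. The 8 genes were chosen from earlier results on these same libraries, namely their UMI counts at the crypt base against enterocytes and between the library groups. Values of those contrasts are therefore given as a description. Where the text counts how many of the 8 genes were called in them, the count is on values that entered the choice, stands beside the share of all genes called, and supports nothing. Crypts of the mouse ileum were dissociated, the epithelial fraction was sorted on EpCAM, an adhesion protein of epithelial cells, and single cells were profiled in droplets. 3 libraries came from Fpr2f/f mice, in which Fpr2 is flanked by recombination sites but intact (genotype label WT), and 3 came from Fpr2VKO mice, in which the same floxed Fpr2 is combined with Cre driven by the Villin promoter, which is active throughout the intestinal epithelium. All carried the floxed Fpr2 alleles on a C57BL/6J background, with 1 mouse per library by the study's account, and no age in the labels used here. Fpr2, which encodes a receptor that binds formyl peptides among other ligands, had 0 UMIs in every library of both groups, so its loss could not be checked in these counts.

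Fluid moves across the intestinal wall with ions. In secreting cells, chloride enters from the blood side through the sodium-potassium-chloride cotransporter encoded by Slc12a2, potassium brought in with it leaves again through channels such as Kcnq1, and chloride leaves into the lumen through the channel Cftr, with sodium and water following. In absorbing cells, sodium enters from the lumen in exchange for protons through Slc9a3, and chloride enters in exchange for bicarbonate through Slc26a3 and Slc26a6. Carbonic anhydrases such as Car12 interconvert carbon dioxide and bicarbonate, and aquaporins such as Aqp4 let water pass the membrane. Secretion is commonly placed in the crypt and absorption on the villus.

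Between 1868 and 4722 barcodes per library passed the filter (at least 1000 UMIs, at least 500 genes and at most 20% mitochondrial UMIs), where a UMI marks 1 captured RNA molecule. They were 9.91% to 34.3% of the barcodes that passed on UMIs and genes, in which the median mitochondrial share was 26.3% to 39.3%. The libraries held 90142126 to 189516114 UMIs over all barcodes, and a pair of libraries shared 0 to 23 barcodes among those kept, where library sizes alone would give 1.795 to 5.68. By difference, the pairs furthest above this were Fpr2f/f replicate 2 with Fpr2VKO replicate 1 (23 barcodes against 4.54), Fpr2VKO replicate 2 (22 against 5.54) and Fpr2f/f replicate 1 (21 against 5.29), within and across the groups. By ratio it was Fpr2f/f replicate 1 with Fpr2VKO replicate 1 (15 against 2.54). Pairs among replicates 1 and 2 of both groups shared 8 to 23 barcodes. The replicate 3 libraries shared 9 with each other (against 2.245) and 0 to 4 with the other libraries. Without the 225 cells concerned, 1 call of the 8 genes was lost, that of Slc26a3 in Paneth-like against stem-like cells (-0.16 on the log2 scale, adjusted p = 0.384 in edgeR). After doublet removal, 16414 epithelial cells (9785 Fpr2f/f and 6629 Fpr2VKO) fell into 7 named classes and 3 unnamed clusters. The classes were stem-like (2323 cells), transit-amplifying or TA-like (4758), enterocyte-like (3675), Paneth-like (1001), goblet-like (1991), enteroendocrine-like (565) and tuft-like (298). All 11 stem markers and all 14 enterocyte markers were highest in their own class, as were 7 of 9 TA markers. The 8 genes were neither among the markers nor among the genes used for clustering. A level below is the CPM of a class, that is, the UMIs of a gene per 1000000 UMIs summed over the cells of 1 library and class, given as mean ± SD over 6 libraries. CPM of different genes are not compared here.

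Cells of 1 class differed widely in depth. Stem-like cells of at least 10000 UMIs made up 23.4% ± 5.10 of the class in Fpr2f/f and 54.2% ± 5.98 of it in Fpr2VKO (mean and SD of 3 libraries per group). In the enterocyte-like class the shares were 11.02% ± 3.35 and 29.2% ± 8.32. Free RNA, read from barcodes under 100 UMIs, took up 7.25% to 13.1% of a library's UMIs and was not removed. Its median over the 6 libraries was 90.5 CPM for Slc12a2, 94.7 for Cftr and 95.5 for Kcnq1. For Slc26a3, Slc26a6, Slc9a3, Aqp4 and Car12 it was 58.9, 23.5, 22.2, 12.3 and 23.5 CPM. As a reference for the reach of free RNA, levels are set beside those of the 262 immune-like cells. Whether immune-like cells express these genes themselves was not tested.

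The basolateral entry step, Slc12a2 (ENSMUSG00000024597, chromosome 18, plus strand), was highest in stem-like cells. Its level there was 501 CPM in the lowest library, 792 in the median and 951 in the highest, and 770 ± 167 on average. Enterocyte-like cells had 17.2, 28.3 and 32.3 CPM at the same points and 26.7 ± 6.01 on average, near the 23.8 ± 12.4 CPM of immune-like cells (mean and SD over the 5 libraries with at least 20 such cells, which stand for immune-like levels throughout). In each of the 6 libraries the stem-like level was higher, by a log2 difference of 4.85 ± 0.62 (range 3.96 to 5.79), or 28.9-fold. Between these ends stood goblet-like (344 ± 65.8), TA-like (228 ± 29.8), tuft-like (105 ± 57.5), enteroendocrine-like (81.9 ± 34.3) and Paneth-like cells (63.7 ± 16.3). The ranges of stem-like, goblet-like and TA-like libraries did not overlap, whereas TA-like and tuft-like, tuft-like and enteroendocrine-like, and enteroendocrine-like and Paneth-like ranges did.

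Kcnq1 (ENSMUSG00000009545, chromosome 7, 143106362 to 143427042, plus strand) encodes the pore of a basolateral potassium channel. Its stem-like level was 281, 374 and 486 CPM in the lowest, median and highest library, with a mean of 369 ± 73.9. It was 294 ± 106 in tuft-like and 233 ± 44.7 in TA-like cells, so that the 3 leading classes overlapped in this order. Enteroendocrine-like (147 ± 23.4), enterocyte-like (85.8 ± 35.4) and goblet-like cells (50.9 ± 21.05) overlapped in turn, and Paneth-like cells (14.1 ± 3.21) lay below all of them. The stem-like level exceeded the enterocyte-like level in each library, by a log2 difference of 2.18 ± 0.46. The antisense RNA Kcnq1ot1 and 11 other annotated genes overlap Kcnq1, and whether counting used the strand was not stated. Kcnq1ot1 itself was counted 938 times in epithelial cells and Kcnq1 35769 times.

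Cftr (ENSMUSG00000041301, chromosome 6, 18170687 to 18322768, plus strand), the apical chloride channel, was spread over the crypt and the enterocyte-like cells. Stem-like libraries had 225, 312 and 452 CPM at the lowest, median and highest point, TA-like libraries 235, 267 and 360, and enterocyte-like libraries 134, 160 and 256. Neighbouring classes overlapped in this order, and all 3 lay above goblet-like (66.8 ± 19.1), tuft-like (57.7 ± 30.6), enteroendocrine-like (40.6 ± 27.4) and Paneth-like cells (17.5 ± 6.65). Within each library Cftr was higher in stem-like than in enterocyte-like cells, by a log2 difference of 0.85 ± 0.33. This direction was seen in deep cells and not in shallow ones, and the part of depth itself was not tested. Among cells of at least 10000 UMIs the log2 difference was 1.22 ± 0.14, and among cells under 10000 UMIs it was -0.62 ± 0.34, with the stem-like level the lower one in 6 of 6 libraries. 2 annotated genes overlap Cftr, 1 of them on the other strand, 1 on the other strand overlaps Aqp4 and 1 on the same strand overlaps Slc26a3, so their counts may share reads.

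Aqp4 (ENSMUSG00000024411, chromosome 18, minus strand), a water channel of the basolateral membrane, was highest in stem-like cells. It reached 107, 152 and 174 CPM in the lowest, median and highest stem-like library, against 44.7 ± 6.79 in TA-like and 42.2 ± 17.7 in enteroendocrine-like cells. The stem-like range lay above all others, and TA-like and enteroendocrine-like ranges overlapped. Goblet-like (17.1 ± 7.48) and tuft-like cells (13.3 ± 12.8) followed. Enterocyte-like (3.34 ± 1.53) and Paneth-like cells (1.68 ± 0.56) had means within the 0 to 10.7 CPM of immune-like cells. The log2 difference of stem-like over enterocyte-like levels was 5.52 ± 0.85, and positive in 6 of 6 libraries.

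Car12 (ENSMUSG00000032373, chromosome 9, 66713686 to 66766845, plus strand), a carbonic anhydrase anchored in the plasma membrane with its active site outside the cell, was 38.7, 44.7 and 48.0 CPM in the lowest, median and highest stem-like library. TA-like cells (34.2 ± 10.2) and enterocyte-like cells (15.2 ± 8.97) followed, each range overlapping the next. Immune-like cells held 7.63 ± 4.47 CPM (0 to 10.7), and 42.4 CPM from 5 UMIs in the library with 19 such cells. The log2 difference of stem-like over enterocyte-like levels was 1.75 ± 0.78, positive in 6 of 6 libraries, and differed with depth: it was 3.504 ± 1.01 in cells of at least 10000 UMIs and 0.57 ± 0.35 in shallower cells.

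The 3 apical exchangers had the reverse pattern. Slc26a3 (ENSMUSG00000001225, chromosome 12, 31390871 to 31473917, plus strand), which takes up chloride for bicarbonate, had 212, 283 and 335 CPM in the lowest, median and highest enterocyte-like library. TA-like cells held 60.8 ± 8.28 and stem-like cells 28.6 ± 2.98, and the ranges of these 3 classes did not overlap. Slc26a6 (ENSMUSG00000023259, chromosome 9, 108853283 to 108913049, plus strand), an exchanger of chloride for bicarbonate and other anions, had 72.4, 78.4 and 105 CPM in the lowest, median and highest enterocyte-like library and at most 8.24 ± 9.12 on average in any other named class. Slc9a3 (ENSMUSG00000036123, chromosome 13, 74121457 to 74169442, plus strand), the apical sodium-proton exchanger, had 103, 145 and 182 CPM in the lowest, median and highest enterocyte-like library, and at most 5.24 ± 1.14 on average in any other named class. The 1803 cells of the 3 unnamed clusters also held the exchangers, with 150.1 ± 18.1 CPM of Slc26a3, 32.4 ± 5.26 of Slc26a6 and 39.5 ± 13.9 of Slc9a3. Most of them were in cluster 7 (1096 cells), led by Gsdmc4, Reg3g and Reg3b, which held 162 CPM of Slc26a3, 33.4 of Slc26a6, 42.1 of Slc9a3 and 275 of Cftr.

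For Slc26a6 and Slc9a3, all named classes other than the enterocyte-like one overlapped their neighbours. Their stem-like levels of 2.07 ± 0.74 and 1.85 ± 0.63 CPM lay within the 0 to 8.79 and 0 to 7.33 CPM of immune-like cells. The log2 differences of stem-like against enterocyte-like levels were -3.31 ± 0.21 for Slc26a3, -5.38 ± 0.53 for Slc26a6 and -6.33 ± 0.66 for Slc9a3, negative in 6 of 6 libraries each. Tuft-like values of these exchangers rested on 38, 12 and 6 UMIs.

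**Figure D1:**
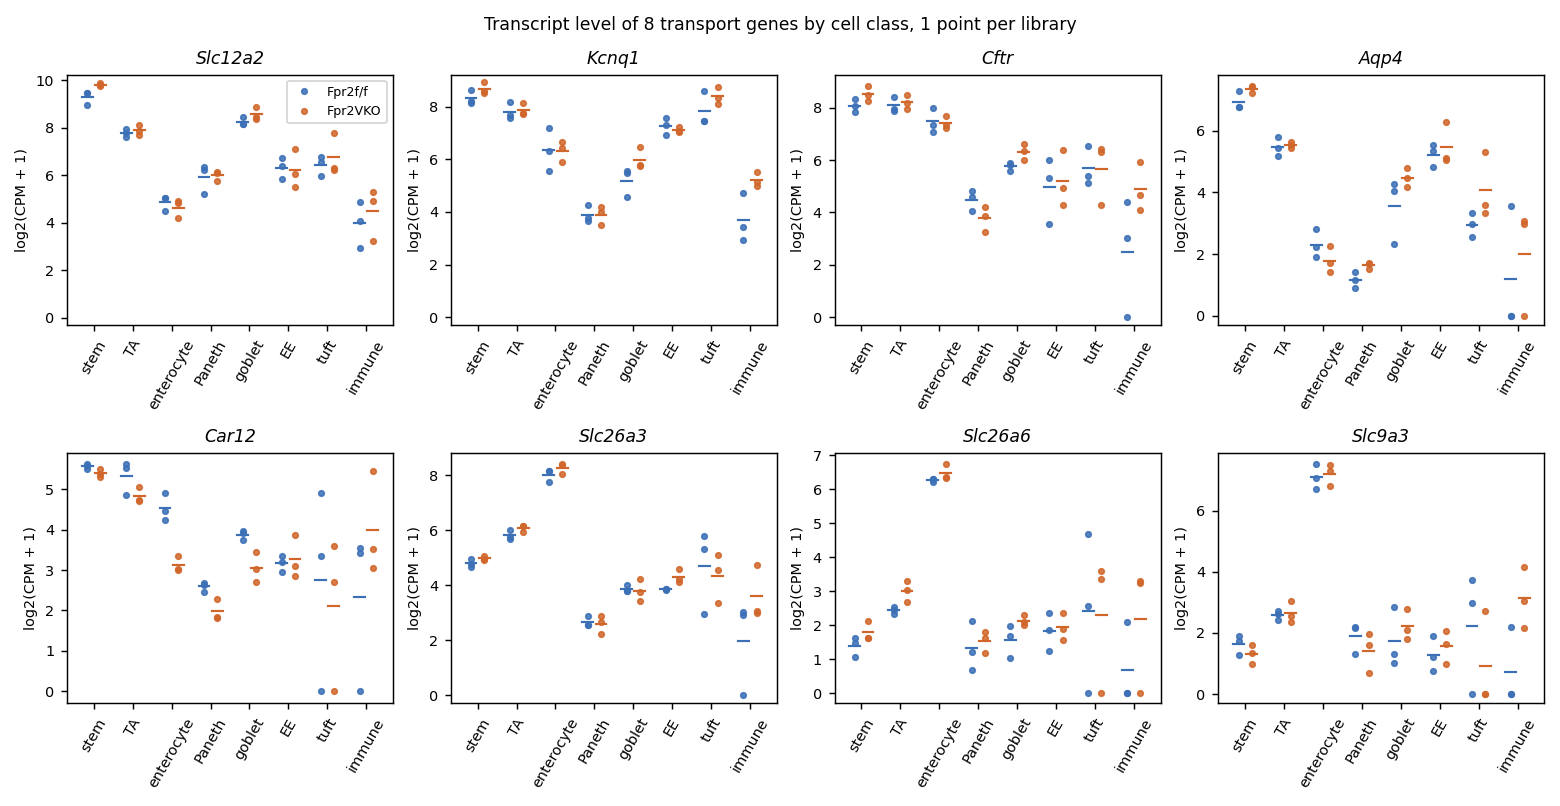
Level of each of the 8 genes as log2(CPM + 1) (vertical axis) in the 7 epithelial classes and the immune-like cells (horizontal axis; EE, enteroendocrine-like), with 1 point per library, blue for Fpr2f/f and orange for Fpr2VKO, and a bar at the mean of each group. Slc12a2, Aqp4, Car12, Kcnq1 and Cftr have their highest mean CPM over 6 libraries in stem-like cells, and Slc26a3, Slc26a6 and Slc9a3 in enterocyte-like cells. In Fpr2f/f alone the mean of Cftr was 274 CPM in TA-like and 269 CPM in stem-like cells.

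Shares of cells with a UMI gave the same order of the 2 classes after cells were thinned to 2000 UMIs. Cells with fewer UMIs were left out: 207 of 1214 stem-like cells in Fpr2f/f and 117 of 1109 in Fpr2VKO, against 540 of 2503 and 140 of 1172 among enterocyte-like cells. Slc12a2 was found in 57.3% ± 10.7 of thinned stem-like and 7.997% ± 2.099 of enterocyte-like cells, Kcnq1 in 41.1% ± 7.40 and 18.0% ± 5.41, and Aqp4 in 15.6% ± 5.58 and 0.57% ± 0.32. The corresponding shares for Cftr were 33.7% ± 9.59 and 28.7% ± 6.50, ranges that overlap widely. Car12 was found in 8.92% ± 1.36 of stem-like and 4.69% ± 1.73 of enterocyte-like cells. Slc26a3 (5.83% ± 1.00 and 33.8% ± 5.39), Slc26a6 (0.54% ± 0.48 and 13.2% ± 2.29) and Slc9a3 (0.58% ± 0.15 and 16.7% ± 4.08) went the other way. In immune-like cells of all 6 libraries, thinned alike, the shares were 3.56% for Slc12a2, 4.69% for Cftr, 5.28% for Kcnq1, 2.24% for Car12, 1.71% for Slc26a3, 0.92% for Slc9a3, and 0.69% for both Slc26a6 and Aqp4. Unthinned, Slc12a2 was found in 72.2% of stem-like, 17.2% of enterocyte-like and 11.8% of immune-like cells, at median depths of 5035, 3345 and 5783 UMIs. Shares of Slc26a6 and Slc9a3 in stem-like cells and of Aqp4 in enterocyte-like cells did not exceed those of immune-like cells and were not told apart from background.

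**Figure D2:**
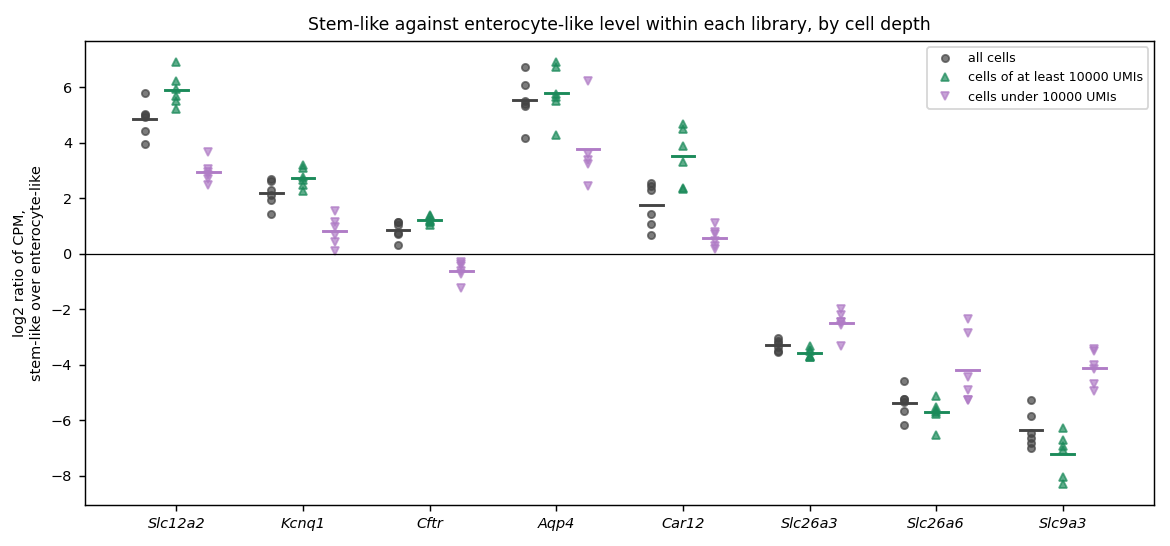
Log2 ratio of the stem-like to the enterocyte-like CPM within each library (vertical axis) for the 8 genes, over all cells, cells of at least 10000 UMIs and cells under 10000 UMIs, with 1 point per library and a bar at the mean. Cftr is above 0 in all and in deep cells (means 0.85 and 1.22) and below 0 in shallow cells (-0.62), while the means of the other 7 genes keep their sign.

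Within classes, the levels differed between clusters, which are numbered by size. Cftr was 363 CPM in the deep stem-like cluster 9 (1008 cells, median 27996 UMIs, range over libraries 295 to 469) and 111 CPM in the shallow stem-like cluster 3 (1315 cells, median 3196 UMIs, 94.9 to 146). Cluster 3 is led by Gphn, Il31ra and Cdca7, has 1 stem marker among its 10 leading genes (3 in cluster 9), and made up 73.0% ± 7.37 of the stem-like class for Fpr2f/f and 37.3% ± 6.75 for Fpr2VKO (SD, n = 3 each). Cftr was higher still in the TA-like cluster 4, led by mitotic genes such as Top2a, Cenpf and Mki67 (465 CPM, 255 to 570). In the enterocyte-like cluster 6, led by Fabp6, Ceacam20 and other genes of the distal absorptive cell, it was 388 CPM (264 to 488), above the 109 CPM of cluster 1 (95.5 to 153) and the 136 CPM of cluster 14 (114 to 170) in every library. Clusters 1 and 6 had like median depths, 2761 and 3550 UMIs. Kcnq1 was 223 CPM in cluster 6 (88.6 to 290.3), 72.8 in cluster 1 (53.0 to 107) and 53.6 in cluster 14 (31.1 to 70.2), and the ranges of clusters 6 and 1 overlapped.

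Car12 was 44.2 CPM in enterocyte-like cluster 1 (23.5 to 63.9) and 26.4 CPM in cluster 6 (13.4 to 38.0), which overlapped, and 3.03 CPM in the deep cluster 14 (1.49 to 6.12), which is led by Fabp1, Rbp2, Sis and other genes of the mature enterocyte. Among TA-like clusters it was 84.1 CPM in cluster 2 (49.8 to 108) and 19.7 CPM in the deep cluster 10 (16.3 to 26.9). Clusters 1 and 2 have 0 markers of their own class among their 10 leading genes, against 4 in cluster 14 and 2 in cluster 10. Slc12a2 was 889 CPM in stem-like cluster 9 (643 to 992) and 287 CPM in cluster 3 (237 to 427), and Aqp4 170 and 26.6 CPM. Both were among the 10 leading genes of cluster 9 by fold, although neither entered the clustering. Depth of cells moved with these values, and its part in them was not tested.

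**Figure D3:**
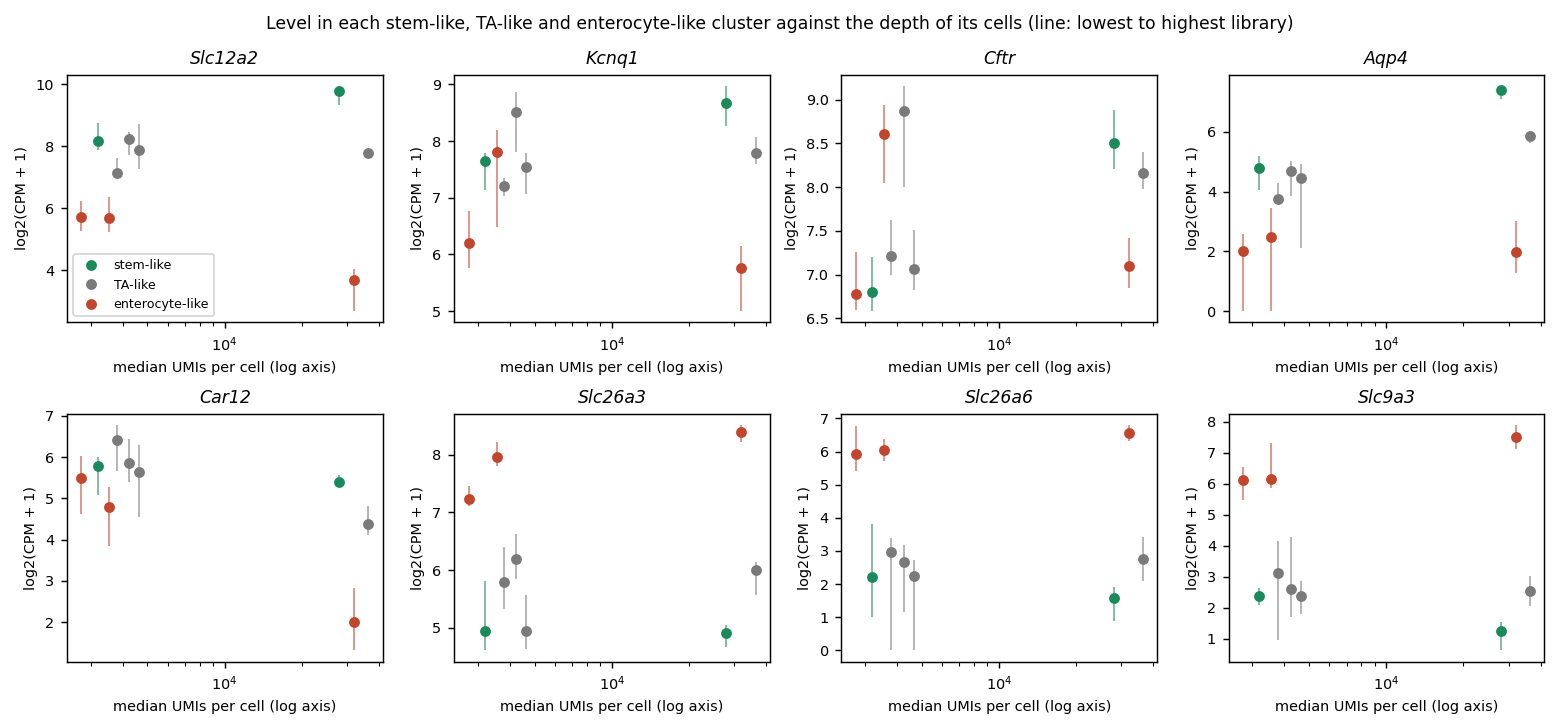
Level of each gene as log2(CPM + 1) (vertical axis) in the clusters of the stem-like, TA-like and enterocyte-like classes present in 6 libraries, against the median UMIs per cell of the cluster (log axis), with a line from the lowest to the highest library. Car12 is lowest in the deep enterocyte-like cluster 14 (3.03 CPM), and Cftr is high in TA-like cluster 4 and enterocyte-like cluster 6 (465 and 388 CPM).

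The promoters of the genes are shown because the genes differ in the class where their levels were highest. RefSeq promoter entries on GRCm38.p6 matched 5 of the 8 genes. For Slc26a6 the window lay within an annotated exon and it is not shown. The stretch before the RefSeq start, which for Slc26a3 lies inside the gene span given above, 250 bases or 248 for Slc26a3, is given 5′ to 3′ on the plus strand, the strand of all 4 genes. For Slc26a3 the bases next to the start lie in an annotated exon and are not printed. Positions and base composition below refer to the full 250 bases. Capitals mark matches on either strand to 5 motifs chosen after the sequences were seen: a CRE-like motif (TGACATCA), HNF1 (the longest run of capitals in Slc26a3), an HNF4-like motif (CAAAGGTCA), a TATA box (TATAAA) and a GC box (GGGCGG). The first pair belongs to genes with their highest mean CPM over 6 libraries in stem-like cells (Cftr at chr6:18170437-18170686 and Car12 at chr9:66713436-66713685). For both, stem-like and TA-like ranges overlapped, and Cftr was not called between these classes. By cluster both were highest in TA-like cells, Cftr in cluster 4 (465 CPM) and Car12 in cluster 2 (84.1 CPM). The second pair belongs to genes with their highest level in enterocyte-like cells (Slc26a3 at chr12:31437969-31438216 and Slc9a3 at chr13:74121163-74121412).
Cftr: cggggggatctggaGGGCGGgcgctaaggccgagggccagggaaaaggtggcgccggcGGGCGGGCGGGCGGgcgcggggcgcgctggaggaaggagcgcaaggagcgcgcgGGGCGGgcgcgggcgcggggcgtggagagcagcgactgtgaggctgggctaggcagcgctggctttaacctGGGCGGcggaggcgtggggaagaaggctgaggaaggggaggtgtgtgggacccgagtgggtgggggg
Car12: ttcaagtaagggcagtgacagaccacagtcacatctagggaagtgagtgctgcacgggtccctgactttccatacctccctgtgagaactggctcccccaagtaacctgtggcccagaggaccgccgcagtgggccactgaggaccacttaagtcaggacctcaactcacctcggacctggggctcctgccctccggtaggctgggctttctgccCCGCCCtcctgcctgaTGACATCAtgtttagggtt
Slc26a3: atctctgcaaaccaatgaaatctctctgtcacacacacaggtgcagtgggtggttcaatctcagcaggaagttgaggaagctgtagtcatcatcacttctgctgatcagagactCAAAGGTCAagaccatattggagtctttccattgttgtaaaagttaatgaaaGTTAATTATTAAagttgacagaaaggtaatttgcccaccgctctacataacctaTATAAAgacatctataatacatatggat
Slc9a3: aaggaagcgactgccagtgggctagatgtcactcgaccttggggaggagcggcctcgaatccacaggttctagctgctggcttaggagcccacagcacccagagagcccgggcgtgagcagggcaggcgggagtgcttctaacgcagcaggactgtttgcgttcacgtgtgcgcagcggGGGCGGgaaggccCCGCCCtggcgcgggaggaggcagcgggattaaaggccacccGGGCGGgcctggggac

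The base composition of these stretches ranged from 38.8% G and C for Slc26a3 to 76.4% for Cftr, with 59.2% for Car12 and 67.6% for Slc9a3. Cftr held 6 GC boxes, 3 of them overlapping, Slc9a3 held 3 and Car12 held 1. The GC box was found in 32.7% of the 32851 promoter windows. The Slc26a3 stretch held the HNF1 motif 84 to 73 bases before the start (0.0609% of windows), the HNF4-like motif 136 to 128 bases before it (0.426%) and a TATA box 30 to 25 bases before it (12.4%). Car12 held the CRE-like motif 19 to 12 bases before its start (2.93% of windows). The printed pair of genes with an enterocyte-like peak thus shared no motif of this set. The Slc26a6 window, which is not printed, held a GC box 56 to 51 bases before its start, a motif that Slc9a3 held too. A match describes letters and does not show that a factor binds there.

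Inside the crypt, TA-like cells are the dividing progeny of stem cells. Against stem-like cells, Slc12a2 and Aqp4 fell most, by 1.83 ± 0.13 and 1.75 ± 0.15 on the log2 scale (± SE), and Kcnq1 and Car12 fell by 0.74 ± 0.11 and 0.50 ± 0.13. Slc26a3, Slc26a6 and Slc9a3 rose by 1.00 ± 0.11, 1.32 ± 0.22 and 1.43 ± 0.29. The TA-like means of Slc26a6 and Slc9a3, 5.75 ± 1.86 and 5.24 ± 1.14 CPM, lay within the ranges of immune-like cells, as did their stem-like means. Cftr was at -0.24 ± 0.15 (95% interval -0.53 to 0.05) and did not pass. The test was edgeR's quasi-likelihood test on UMI sums of library and class, with library as a block and p-values adjusted over 13768 genes, of which 14.6% were called higher and 17.4% lower in TA-like cells at an adjusted p under 0.05. The 7 calls had adjusted p from 2.1e-15 (Slc12a2) to 0.0027 (Car12). The stem-like sums of this contrast also entered the choice of the genes, so the directions are not independent of that choice. TMM split all genes called into 2009 higher and 2394 lower, and scaling by the total count into 2459 and 1506. In cells under 10000 UMIs 4 of the 8 genes were called, beside 2681 of all genes against 4403 over all cells. With up to 40% mitochondrial UMIs Kcnq1 was called in the other direction (0.26, edgeR adjusted p = 0.0134), and Car12 was at 0.13 and not called.

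Paneth cells sit among the stem cells at the crypt base and fill with antimicrobial proteins. Against stem-like cells, 5 genes fell on the log2 scale: Aqp4 (-4.31 ± 0.25), Kcnq1 (-2.71 ± 0.13), Cftr (-2.26 ± 0.18), Slc12a2 (-1.63 ± 0.13) and Car12 (-1.53 ± 0.19), with edgeR adjusted p of at most 3.8e-10 (± SE). Slc26a3 was at -0.38 ± 0.16 (adjusted p = 0.0267) and was called in 6 of 17 alternatives. These include the limit of 40% mitochondrial UMIs, where it was called in the other direction (0.35, edgeR adjusted p = 0.0121). Among cells under 10000 UMIs it was at 0.43 and not called. Slc26a6 and Slc9a3 were called higher, at 1.83 ± 0.29 and 2.45 ± 0.37, beside 32.6% of all genes called higher and 34% lower. Those 2 calls rested on the scaling. TMM moved the median of all genes by 2.03 (log2) relative to scaling by the total count. With the total count, which turns the split of all genes from 4489 higher and 4686 lower to 692 and 11324, Slc26a6 was at -0.21 (adjusted p = 0.49) and Slc9a3 at 0.38 (adjusted p = 0.273), while the other 6 genes were at -2.44 to -6.36. The CPM of Slc26a6 and Slc9a3 in Paneth-like cells, 1.84 ± 0.99 and 2.36 ± 1.18, lay within the ranges of immune-like cells. As in the TA-like contrast, the stem-like sums entered the choice of the genes, so the directions are not independent of it.

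The contrasts among goblet, enteroendocrine and tuft cells, which secrete mucus, hormones and signals of parasite infection, were not used in choosing the genes. Each class was set against the mean of the other two in the same fit. In goblet-like cells Slc12a2 rose by 2.22 ± 0.13 on the log2 scale (edgeR adjusted p = 2.0e-18). Its goblet-like level lay between 282 and 465 CPM over the 6 libraries, against 44.1 to 137 in enteroendocrine-like and 60.9 to 217 in tuft-like cells, with no overlap. Cftr rose by 0.79 ± 0.21 (adjusted p = 0.0022), Kcnq1 fell by 1.74 ± 0.12 (adjusted p = 3.5e-17) and Slc26a3 was at -0.53 ± 0.20 (adjusted p = 0.024). The Slc26a3 call held in 9 of 17 alternatives, and its value turned to 3.65 with at most 10% mitochondrial UMIs, 0.38 among cells under 10000 UMIs and 0.046 at resolution 2. It was lost without Fpr2f/f replicate 2 (-0.33). Of the 8 genes 2 were called higher and 2 lower, where 27.3% of all genes were called higher and 17.5% lower. Scaled by the total count, which shifts the median by 0.29 and the split of all genes from 3759 higher and 2404 lower to 2245 and 3929, Cftr lost its call (adjusted p = 0.06) and Slc26a6, at -0.81 under TMM, was called at -1.09 (adjusted p = 0.0146).

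In tuft-like cells Kcnq1 rose by 1.70 ± 0.15 (adjusted p = 6.4e-14). Its lowest tuft-like library, 174 CPM, stood above the highest goblet-like library, 87.3 CPM, and within the enteroendocrine-like range of 122 to 188 CPM. Slc26a6 and Slc26a3 were called higher by 2.00 ± 0.58 and 1.21 ± 0.31, from 12 and 38 tuft-like UMIs in all. Slc12a2 fell by 0.69 ± 0.21, called in 12 of 17 alternatives with values from -0.82 to -0.16. Of all genes 12.9% were called higher and 20.5% lower. Fpr2f/f replicate 2 held 8 of the 12 Slc26a6 UMIs and 18 of the 38 Slc26a3 UMIs, and without it the calls of Slc26a6 and Slc26a3 were lost (0.82 and 0.71). With at most 10% mitochondrial UMIs Slc26a3 turned to -7.21.

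In enteroendocrine-like cells Aqp4 rose by 1.09 ± 0.31 (adjusted p = 0.003; -1.15 and not called with at most 10% mitochondrial UMIs, called in 14 of 17 alternatives), with 27.2 to 76.0 CPM against 4.03 to 26.5 in goblet-like and 4.87 to 39.0 in tuft-like cells. Within that class it was 65.3 CPM in cluster 16, led by Gcg, Ghrl, Cck and Gip, and 13.3 CPM in cluster 19, led by Chgb, Tac1, Chga and Tph1, while Kcnq1 was 72.9 and 225 CPM. Slc12a2 fell by 1.53 ± 0.17, Slc26a6 by 1.19 ± 0.42, Cftr by 1.03 ± 0.25 and Slc26a3 by 0.68 ± 0.22 (3.56 and not called with at most 10% mitochondrial UMIs, -0.38 and not called without Fpr2f/f replicate 2). The enteroendocrine-like means of Slc26a6 and Slc26a3, 2.82 and 16.2 CPM, were not below the goblet-like means, 2.73 and 13.4 CPM. They were below the tuft-like means, 8.24 and 27.5 CPM, which rested on 12 and 38 UMIs. Slc26a6 in enteroendocrine-like cells rested on 21 UMIs, with a mean within the 0 to 8.79 CPM of immune-like cells. Of all genes 29.7% were called higher and 22.2% lower. Scaled by the total count (median shift -0.31, with 5789 genes higher and 1887 lower against 4088 and 3052), Slc26a6 and Slc26a3 were not called and Kcnq1 was. Without Fpr2f/f replicate 2, 3 of the 8 genes were called.

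**Figure D4:**
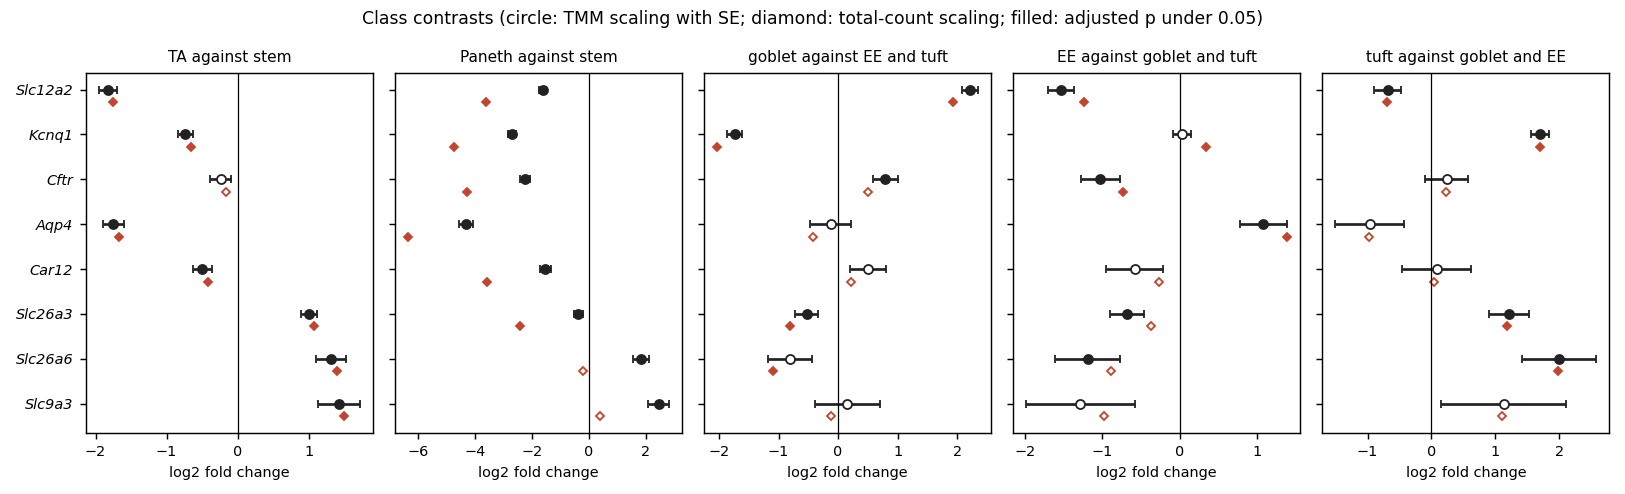
Log2 fold change of the 8 genes (horizontal axis) in 5 contrasts of classes, as circles with SE under TMM scaling and as diamonds under total-count scaling, filled where the adjusted p was under 0.05. Both scalings nearly coincide in the TA-like and tuft-like contrasts, and they differ by about 2 log2 units in the Paneth-like contrast.

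Other genes of ion and water transport were taken from a list of 53, drawn up with earlier results of these data known. Of these 42 passed the filter in the joint fit, and the counts depend on which genes were listed. In stem-like against enterocyte-like cells, 8 were higher, 32 lower and 2 not called, with a median log2 fold change of -1.05. Over all 13768 genes, 33% were higher and 37.4% lower, with a median of -0.07 under TMM, which shifted it by -0.16 relative to the total count. The background includes genes used for clustering, which the transport genes were not. In the same contrast 5 of the 8 chosen genes were called higher and 3 lower, which the choice fixed.

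By role, the 7 tested genes listed under chloride channels and anion exchangers, Clca4a and Clca4b among them, were lower in stem-like cells without exception. So were the 4 tested carbonic anhydrases and the 4 tested nutrient transporters coupled to ions. The roles are those of the list, and whether each gene encodes a channel was not tested. Of 6 genes for sodium-proton exchange and the sodium channel 5 were lower. Of 6 genes for the sodium pump and bicarbonate entry 2 were higher (Atp1b3 and Slc4a7, at 1.49 and 1.08) and 4 lower. The 4 tested potassium channel genes split evenly. Of 9 genes that control secretion 3 were higher and 5 lower. The 3 largest rises were in Kcne3 (3.59 ± 0.15), a partner subunit of Kcnq1, Aqp1 (2.81 ± 0.14), a water channel, and Kcnn4 (2.25 ± 0.14), a calcium-activated potassium channel. Kcne3 went from 13.4 ± 3.95 CPM in enterocyte-like to 182 ± 21.7 in stem-like cells, Aqp1 from 8.03 ± 3.35 to 63.4 ± 11.7 and Kcnn4 from 12.2 ± 4.61 to 65.6 ± 5.25. The 3 largest falls were in Clca4a (-6.38 ± 0.40), Slc15a1 (-5.77 ± 0.36), a peptide transporter, and Slc6a19 (-5.66 ± 0.29), a transporter of neutral amino acids. Clca4a ranged from 0.81 to 146 CPM over the enterocyte-like libraries.

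Between TA-like and stem-like cells 15 of the 42 genes were higher and 8 lower (14.6% and 17.4% of all genes). Kcne3, which fell by 1.02 ± 0.12, and the muscarinic receptor Chrm3, which fell by 1.89 ± 0.21, moved with Kcnq1, and the potassium channel Kcnk5, which rose by 1.07 ± 0.13, moved against it. Car4, an enterocyte carbonic anhydrase, rose by 1.28 ± 0.14 where Car12 fell, but was called lower with up to 40% mitochondrial UMIs (-0.33). In Paneth-like cells 15 were higher and 16 lower under TMM (32.6% and 34% of all genes), a split that rests on the scaling as described for all genes above. Guca2b and Guca2a, which encode peptides that stimulate secretion, rose by 8.83 ± 0.27 and 7.81 ± 0.38 there, and Kcnn4 and Kcne3 fell by 2.12 ± 0.18 and 2.07 ± 0.15. Among the secretory classes, goblet-like cells had 14 higher and 10 lower (27.3% and 17.5% of all genes), with Scnn1a, a subunit of the epithelial sodium channel, at 57.5 ± 7.37 CPM against 3.39 ± 2.28 in enteroendocrine-like and 1.85 ± 2.86 in tuft-like cells (4.85 ± 0.28 on the log2 scale). Enteroendocrine-like cells had 12 higher and 18 lower (29.7% and 22.2%), led by Slc6a19 (5.89 ± 0.38). Tuft-like cells had 10 of each (12.9% and 20.5%), led by Ano6 (3.03 ± 0.11), a calcium-activated scramblase and channel.

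The genes most like each of the 8 were read from Pearson's r of log2(CPM + 1) over 48 sums of library and class. The sums share libraries and total depths, so r is given without a p. Slc12a2 went with the stem marker Olfm4 (r = 0.890), Adra2a (0.873) and Rcc2 (0.865), and Aqp4 with the TA marker Stmn1 (0.947), Tmpo (0.935) and Cdk4 (0.933). Kcnq1 went with Clic6 (0.927), Ddx39b (0.925) and Arid5b (0.917), Cftr with Aldh1b1 (0.960), Tfrc (0.954) and Tnfsf10 (0.952), and Car12 with the stem marker Rnf43 (0.892), Gemin5 (0.885) and Pole (0.847). Slc26a3 went with Mttp (0.973), Sult1b1 (0.972) and Car4 (0.958), Slc26a6 with Ocm (0.927), Mogat2 (0.916) and Enpep (0.915), and Slc9a3 with Mep1b (0.946), Tex12 (0.933) and H2-Q1 (0.931). Among the 8 themselves r was highest between Slc26a3 and Slc26a6 (0.876) and lowest between Slc12a2 and Slc26a6 (-0.611). Cftr had r = 0.721 with Slc26a3 and 0.321 with Slc12a2.

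The study compared Fpr2VKO with Fpr2f/f mice. Over all epithelial cells 3 of the 8 genes had groups that did not overlap, as did 13.5% of the 16633 genes tested. The edgeR test called 0 of the 8 and 0.018% of all genes in either direction. An unadjusted p under 0.05 was reached by 3 of the 8 and by 9.10% of all genes, and DESeq2 called 2 of the 8 (Slc12a2 and Aqp4) and 0.732% of the 15983 genes to which it gave an adjusted p. Because the groups entered the choice of the genes, nothing is read from these counts, here or in the classes below. Slc12a2 was 201, 162 and 201 CPM in Fpr2f/f and 300.5, 288 and 296 CPM in Fpr2VKO libraries, a log2 difference of 0.70 ± 0.11 (SE). All 3 Fpr2VKO libraries stood above all Fpr2f/f libraries, and the SD within Fpr2VKO was 6.18 CPM. Aqp4 was 45.2, 27.3 and 29.0 CPM in Fpr2f/f and 53.3, 51.9 and 46.3 CPM in Fpr2VKO libraries, so that Fpr2f/f replicate 1 came close to the lowest Fpr2VKO library. Car12 was 21.6, 26.3 and 25.7 CPM in Fpr2f/f and 20.5, 16.0 and 18.0 CPM in Fpr2VKO libraries, again with the first Fpr2f/f library nearest to the other group. The log2 difference of Aqp4, 0.64, turned to -0.26 with at most 10% mitochondrial UMIs, and that of Car12, -0.41, to 0.012 among cells of at least 10000 UMIs. The remaining 5 genes overlapped, with log2 differences from -0.01 ± 0.22 (Slc9a3) to 0.27 ± 0.16 (Kcnq1). A level over all cells moves with the mix of classes and of deep and shallow cells as well as with the level per cell, and these cannot be told apart there.

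Within stem-like cells Slc12a2 was 709, 501 and 697 CPM in Fpr2f/f and 886, 951 and 876 CPM in Fpr2VKO libraries, without overlap. In this class 1 of the 8 genes and 18.7% of all genes had groups without overlap. The edgeR test called 0 of the 8 and 0.517% of all genes, and an unadjusted p under 0.05 was reached by 3 of the 8 and 12.4% of all genes. The deep cluster 9 made up 27.0% ± 7.37 of the class in Fpr2f/f and 62.7% ± 6.75 of it in Fpr2VKO, and it held more Slc12a2 than cluster 3 in both groups. Within cluster 9 the levels were 800, 643 and 814 against 948, 992 and 901 CPM, still without overlap. Within cluster 3 they were 237, 238 and 373 against 295, 249 and 427 CPM, and overlapped. Aqp4 in stem-like cells was 154, 109 and 107 in Fpr2f/f against 170, 174 and 149 CPM in Fpr2VKO libraries, and overlapped.

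Within enterocyte-like cells Car12 was 17.8, 29.0 and 21.1 CPM in Fpr2f/f and 6.94, 7.15 and 9.23 CPM in Fpr2VKO libraries, a log2 difference of -1.57 ± 0.23. It was the single member of the 8 called there, in a class where 2.12% of all genes were called and 25.7% had groups without overlap. As Car12 was chosen with the groups in view, the call is no test. Cluster 1, with the highest Car12, made up 58.8% ± 20.4 of the class in Fpr2f/f and 34.8% ± 10.9 of it in Fpr2VKO, and cluster 14, with the lowest, 8.88% (5.65 to 10.8) and 28.6% (17.6 to 37.1). Within cluster 1 the levels were 37.5, 44.9 and 59.1 in Fpr2f/f against 23.5, 63.9 and 53.7 CPM in Fpr2VKO libraries, and within cluster 6 they were 32.0, 38.0 and 23.9 against 13.4, 24.5 and 28.8 CPM. The groups overlapped in both. Within cluster 14 they were 3.38, 6.04 and 6.12 against 1.49, 1.52 and 1.80 CPM, without overlap, from 5 to 17 UMIs per library. The log2 difference was -1.69 ± 0.42 among cells of at least 10000 UMIs and -0.52 ± 0.28 among cells under 10000 UMIs, -0.81 ± 0.18 with up to 40% mitochondrial UMIs and -1.09 ± 0.29 with at least 3000 UMIs per cell, and it was called in none of these. Levels of Car12 in Fpr2VKO enterocyte-like cells lay within the 0 to 10.7 CPM of immune-like cells.

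The difference of the group effects, stem-like minus enterocyte-like, was 1.35 ± 0.22 (log2) for Car12, 0.46 ± 0.12 for Cftr, 0.76 ± 0.27 for Slc12a2, 1.06 ± 0.35 for Aqp4 and -0.84 ± 0.39 for Slc9a3, the 5 with an unadjusted p under 0.05 (13.4% of all genes). Car12 was the single call of the 8, beside 0.0956% of all genes. Both contrasts of the choice enter this difference, so it is a description too. Stem-like levels of Car12 were 48.0, 46.8 and 44.7 in Fpr2f/f and 40.9, 38.7 and 44.7 CPM in Fpr2VKO libraries. In the remaining classes edgeR called 0 of the 8, while an unadjusted p under 0.05 was reached by 2 in the TA-like class, by 3 in the Paneth-like class, by 2 in the goblet-like class and by 0 in the enteroendocrine-like and tuft-like classes, beside 4.48%, 8.02%, 10.4%, 2.78% and 3.19% of all genes. After adjustment the share of all genes called was 0.00792% for TA-like, 0.0949% for Paneth-like, 0.308% for goblet-like, 0.0204% for enteroendocrine-like and 0.0371% for tuft-like cells. The filter on low counts kept 6 of the 8 genes in enteroendocrine-like and 3 in tuft-like cells. In goblet-like cells Cftr was 54.7, 47.0 and 57.9 CPM in Fpr2f/f and 62.3, 81.2 and 98.0 CPM in Fpr2VKO libraries, and Car12 was 12.4, 14.2 and 14.7 against 9.93, 7.15 and 5.53 CPM, both without overlap, as was Kcnq1 (22.7, 46.1 and 43.2 against 53.9, 52.4 and 87.3 CPM). Goblet-like cluster 5 made up 69.8% ± 4.64 of the class in Fpr2f/f and 51.8% ± 8.46 in Fpr2VKO. Car12, Cftr and Kcnq1 were 26.9, 69.8 and 59.7 CPM in cluster 5 and 5.92, 63.5 and 48.2 CPM in cluster 11. The part of this shift was not tested. Slc26a6 in TA-like, enterocyte-like and goblet-like cells, Slc26a3 in enteroendocrine-like cells, and Aqp4 and Car12 in Paneth-like cells also had groups without overlap. So had Aqp4 in tuft-like cells, from 15 UMIs and without a test. Paneth-like cluster 13 made up 42.5% ± 0.69 of its class in Fpr2f/f and 65.6% ± 14.8 in Fpr2VKO. Clusters 13, 15 and 20 held 1.79, 22.6 and 8.27 CPM of Car12 and 1.22, 6.06 and 2.76 CPM of Aqp4. The part of this shift was not tested. Of all genes tested, groups were without overlap for 8.73% among TA-like cells, 7.17% for the Paneth-like class, 16.8% for the goblet-like, and 8.26% and 8.16% for enteroendocrine-like and tuft-like cells. Of the 53 other transport genes 1 was called between the groups in any class, Clca4b in stem-like cells (log2 difference 0.68 ± 0.13, edgeR adjusted p = 0.0207).

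Markers of other cells were summed beside these values. The 9 immune markers summed to 16.3 to 18.3 CPM in Fpr2f/f and 14.6 to 24.5 CPM in Fpr2VKO epithelial sums, and to 8.53 to 19.7 and 5.13 to 43.6 CPM in enterocyte-like sums. The 8 Paneth markers summed to 451 to 2962 CPM in Fpr2f/f and 970 to 1543 CPM in Fpr2VKO enterocyte-like sums. The groups overlapped in these sums, but not in those of the 14 enterocyte markers in 3 other classes. Those summed to 698 to 887 CPM in Fpr2f/f against 968 to 1149 in Fpr2VKO stem-like cells, to 1024 to 1216 against 1698 to 1754 in TA-like cells and to 1457 to 1614 against 1718 to 1835 in goblet-like cells. The 7 goblet markers of goblet-like sums were 108982 to 119271 against 90606 to 100889 CPM. These are classes where Slc12a2, Slc26a6, Cftr, Kcnq1 or Car12 had groups without overlap. The part of these markers in the group differences was not tested.

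**Figure D5:**
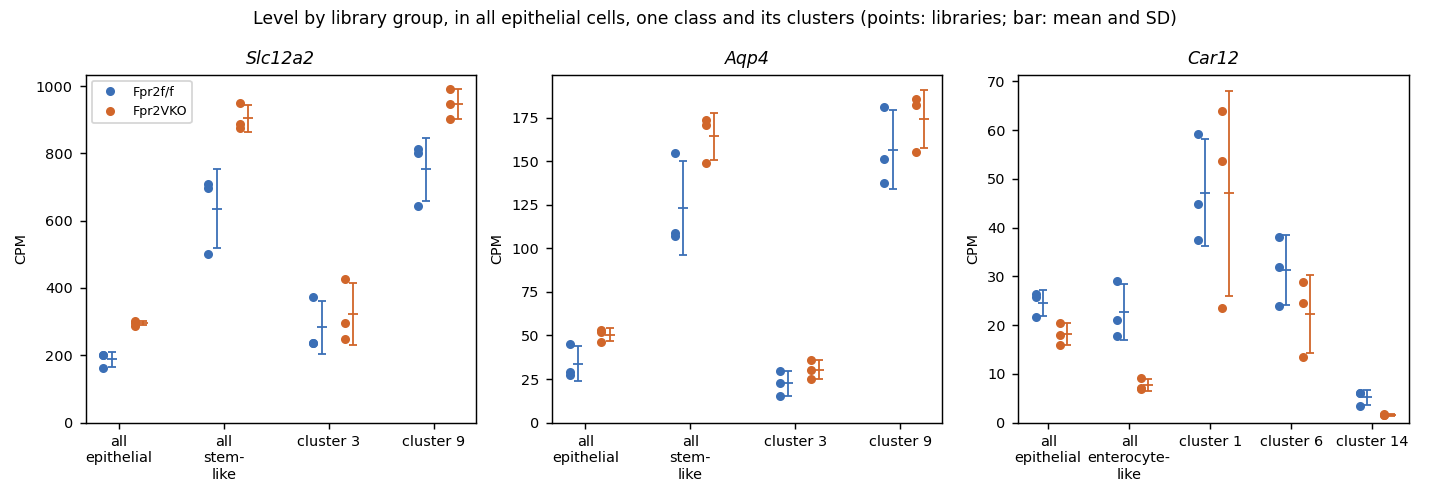
CPM of Slc12a2, Aqp4 and Car12 (vertical axes) in Fpr2f/f and Fpr2VKO libraries, over all epithelial cells, over 1 class and over the clusters of that class, with 1 point per library and the mean and SD of 3. The groups of Slc12a2 are apart in cluster 9 and overlap in cluster 3, and those of Car12 are apart over all enterocyte-like cells and in the deep cluster 14, and overlap in clusters 1 and 6.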

How the data were processed

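The authors aligned reads to mm10 with MobiVision, and the deposited matrices hold raw UMI counts for 32285 genes and all barcodes of the platform, before cell calling. The submitters' processing notes name Seurat (4.0 and 4.0.0). The strand used in counting and the study's filter limits are not given in the sources used here. The members and gene lists were chosen with earlier results of these data known.

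Barcodes with at least 1000 UMIs, 500 genes and at most 20% mitochondrial UMIs were kept. Doublets were scored against 25% artificial ones, and the top 0.8% per 1000 cells removed. Cells were log-normalized, reduced to 30 principal components of 2000 variable genes without the transport genes, aligned by mutual nearest neighbours and clustered (leidenalg 0.10.2, resolution 1, 20 neighbours). A cluster was named after the marker list of largest mean log2 fold in it (at least 0.5, at least 3 markers in at least 10% of cells), unless its 10 leading genes went against it. Cluster 22, 37 cells led by immunoglobulin genes, stayed unnamed and within the epithelial sums.

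UMIs were summed per library and class of at least 20 cells and tested with edgeR 4.0.16 in R 4.3.3 (quasi-likelihood, TMM, filterByExpr, robust), adjusted by Benjamini-Hochberg over all genes tested, with a threshold of 0.05. The SE is the log2 fold change divided by the square root of F. Class contrasts had library as a block. Named were the 8 members and, per contrast, up to 3 higher and 3 lower called genes of the other transport list with the largest fold change. Members named for clusters and Atp1b3 and Slc4a7 were named after their values were seen. The counts of every pair of libraries differed beyond sampling noise. The test code was run on simulated counts with known changes, which checks the code and not the results given here. Alternatives were DESeq2 1.42.0, other scalings, no filter on low counts, other limits on cells, another resolution, no alignment, leaving out each library, a replicate block, and, chosen after seeing the data, deep or shallow cells alone and leaving out barcodes shared between libraries. With 3 mice per group, p-values of the group tests measure the spread between these libraries. Class contrasts came from 1 joint fit of 48 sums of library and class. Their p-values measure the spread left after library was taken out, pooled over the classes, from 6 libraries.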

Additional observations from a re-analysis of the deposited data

Results flagged for a closer look

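The difference of the group effects on Car12 between stem-like and enterocyte-like cells was drawn out because the effects in the 2 classes differed in a test of the difference itself. It came to 1.35 (log2), with a log2 difference of Fpr2VKO over Fpr2f/f of -0.24 ± 0.13 (SE) for the stem-like class and -1.57 ± 0.23 for the enterocyte-like class. Car12 was chosen with these groups in view, so the value is a description. It was called in 9 of 16 alternatives. It lost its call at 1.08 without Fpr2f/f replicate 2, 0.47 with up to 40% mitochondrial UMIs, 0.96 with at least 3000 UMIs per cell, 0.94 at resolution 2, 0.94 without alignment, 1.72 among cells of at least 10000 UMIs and -0.16 among cells under 10000 UMIs. The enterocyte-like sums of Fpr2VKO libraries held 33 to 39 Car12 UMIs each. The cause was not tested.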

How the results depend on the processing

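Of 1288 recomputed values of single genes, over 77 results, 1160 were kept, 73 lost a call, 7 gained one, 26 moved by more than 1 SD and 22 changed sign. With a test, a kept value had the same direction and side of the threshold. The stem-like against enterocyte-like ratios of the members had no test. There a kept value had moved by less than 1 SD or, for thinned shares, had the same sign. All 17 alternatives run kept the calls of Slc12a2 and Aqp4 in TA-like and Paneth-like cells and of Slc12a2 in goblet-like cells. Slc26a3 was called in 6 of 17 in Paneth-like and 9 of 17 in goblet-like cells. The 6 include a call in the other direction with up to 40% mitochondrial UMIs.

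Among cells under 10000 UMIs, the members called were 4 of 8 in TA-like cells and 2 each in enteroendocrine-like and tuft-like cells. Of all genes, 2681 against 4403 were called there in TA-like and 3757 against 7140 in enteroendocrine-like cells. At most 10% mitochondrial UMIs left 2 members in goblet-like, 2 in enteroendocrine-like and 1 in tuft-like cells. Of all genes, that limit left 3536 against 6163 in goblet-like and 1844 against 4590 in tuft-like cells. Leaving out each library gave 7 to 7 in TA-like, 7 to 8 in Paneth-like, 3 to 5 in goblet-like, 3 to 6 in enteroendocrine-like and 2 to 4 in tuft-like cells, and the lowest values of the last pair came without Fpr2f/f replicate 2.

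Between the groups, over all epithelial cells, DESeq2 called 2 members, no filter on low counts 2 and leaving out a library 0 to 2 (2 without Fpr2f/f replicate 1), against 0. Of all genes, DESeq2 called 0.732% against 0.018%, and no filter called 156 genes against 3. Within classes, against 1 call, no filter gave 5, resolution 2 gave 2, leaving out a library 1 to 3 (3 without Fpr2f/f replicate 1, 2 without Fpr2VKO replicate 1), and other limits on mitochondrial UMIs, at least 3000 UMIs, no alignment, deep cells and shallow cells 0. Of all genes, no filter called 266 against 60 in stem-like, 891 against 237 in enterocyte-like and 106 against 33 in goblet-like cells. Leaving out Fpr2f/f replicate 1 called 140 against 1 in TA-like cells, and at least 3000 UMIs called 2 against 237 in enterocyte-like cells. For the difference of group effects, 1 member and 11 of all genes were called. No filter gave 3 members and 167 of all genes, and no alignment, deep cells and shallow cells gave 0 members. With up to 40% mitochondrial UMIs, at least 3000 UMIs and resolution 2 the count was 1, but the gene called was Cftr (0.44, 0.52 and 0.63) and not Car12. Without Fpr2f/f replicate 2 it was 0, and leaving out each library gave 0 to 1. DESeq2 gave 0 because it assigned no adjusted p to Car12.

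With the replicate number as a block, 1 member was called over all epithelial cells (Slc12a2), and the block changed no other call of a member. Deviations of same-numbered libraries from their group means had correlations of -0.0041, 0.0228 and 0.359 over 16655 genes for replicates 1, 2 and 3. The numbers were not taken to pair the libraries, although the replicate 3 libraries also shared more barcodes than size alone would give. The labels give no batch, and such a structure was not tested beyond this block.

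Log2 values that changed sign were, among cells under 10000 UMIs, Cftr in stem-like against enterocyte-like cells (-0.64), Slc9a3 and Guca2a in TA-like cells (-0.085 and -0.015), Slc26a3 in Paneth-like and goblet-like cells (0.43 and 0.38) and the Car12 difference of group effects (-0.16). With up to 40% mitochondrial UMIs they were Kcnq1, Car12, Car4 and Chrm3 in TA-like cells (0.26, 0.13, -0.33 and 0.0068) and Car12 and Slc26a3 in Paneth-like cells (0.10 and 0.35). Among these Kcnq1, Car4 and Slc26a3 were called in the new direction. With at most 10% mitochondrial UMIs they were Slc26a3 in goblet-like, enteroendocrine-like and tuft-like cells (3.65, 3.56 and -7.21), Prkg2 in goblet-like cells (1.36), Aqp4 and Slc15a1 in enteroendocrine-like cells (-1.15 and -0.35) and Aqp4 between the groups (-0.26). Total-count scaling turned Slc26a6 in Paneth-like cells (-0.21), resolution 2 turned Slc26a3 in goblet-like cells (0.046), and deep cells turned Car12 between the groups (0.012). The causes were not tested.

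Counts of all genes called ranged over the alternatives from 2681 to 8606 in TA-like (4403 as reported), 3023 to 12016 in Paneth-like (9175), 3536 to 7256 in goblet-like (6163), 3757 to 8356 in enteroendocrine-like (7140), 1844 to 5747 in tuft-like (4590) and 5826 to 10040 in stem-like against enterocyte-like cells (9681). Between the groups they ranged from 1 to 156 over all epithelial cells (3), 1 to 266 in stem-like (60), 1 to 140 in TA-like (1), 2 to 891 in enterocyte-like (237), 1 to 64 in Paneth-like (9), 3 to 106 in goblet-like (33), 0 to 9 in enteroendocrine-like (2) and 1 to 6 in tuft-like cells (1), and from 1 to 167 for the difference of group effects (11).

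At most 10% mitochondrial UMIs left no stem-like class, and deep cells held too few tuft-like cells, so contrasts that need them were not run. The replicate block was not run for the class contrasts or the difference of group effects, which had library as a block. Free RNA was not removed, which limits levels near those of immune-like cells. Intervals and SE of the group tests cover the spread between these libraries. Where library was a block, they cover the spread left after library was taken out.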
